A study of Homo sapiens with 12 samples.

Results

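The 10 genes described here are the heat shock transcription factor HSF1 and 9 chaperones or co-chaperones of the cytosolic heat shock response: HSPA1A, HSPA1B, HSPA8, HSPH1, HSP90AA1, HSP90AB1, DNAJB1, BAG3 and HSPB1. They were taken by gene symbol from the authors' comparison tables, which together list 27146 genes. All 10 were measured in each of the 3 tables. RNA came from MDA-MB-231, an established cell line of human triple-negative breast cancer, after 48 h with SAHA, compound 1 or a6, each at 2.5 µM, or with DMSO alone (Ctrl). SAHA (vorinostat) inhibits histone deacetylases (HDACs), compound 1 is labelled as the other single-target agent, and a6 is labelled as hitting both HDACs and G-quadruplexes (G4s), folded structures of guanine-rich nucleic acid. Each of the 4 groups had 3 libraries, labelled as biological replicates and not described further, so p-values rest on library-to-library spread alone, which may be partly technical. In bulk RNA of this kind, fewer cells and less RNA per cell cannot be told apart.

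Each gene has a mean normalized read count over the libraries compared, a log2 fold change of compound over Ctrl and its standard error. Values of single libraries were not used here, so the spread of a gene over libraries is known only through that standard error, and the depth of each library is unknown. Markers of the line were checked first: the mesenchymal marker VIM had a mean normalized count of 20315, ESR1 0.489 and PGR 0.317 in the compound 1 table, while ERBB2 had 2088. In the same comparison CD44 had 8129, and the epithelial markers KRT18, EPCAM and CDH1 had 7981, 171 and 5.38. So markers of both kinds were present. Of 8 markers of other cell types, 5 were measured with SAHA and compound 1 and 1 with a6, while PTPRC, CD3E and ALB were in none of the tables. COL1A1, a collagen gene of fibroblasts, had mean normalized counts of 243 over SAHA and Ctrl, 172 over compound 1 and Ctrl, and 178 over a6 and Ctrl. CD68, PECAM1, VWF and COL3A1 had 5.88, 6.24, 12.2 and 3.76 in the SAHA table.

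Unfolded or misfolded proteins draw HSP70 and HSP90 chaperones away from HSF1, which then forms trimers, binds heat shock elements and raises transcription of the chaperone genes. HSP70 proteins bind exposed hydrophobic segments, J-domain proteins deliver the client and trigger ATP hydrolysis, and nucleotide exchange factors release it. HSP90 completes the folding of kinases, steroid receptors and other signalling proteins. HSP90 and HSF1 are both known substrates of protein acetylation, and HDAC6 is known to deacetylate HSP90. Cancer cells often depend on high constitutive levels of these genes.

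HSF1 acts through the heat shock element, an array of inverted GAA units, so the promoters of the chaperones were searched for it first. RefSeq promoter windows on GRCh38.p14, each reaching 250 bases before to 50 after a transcript start, matched 9 of the 10 genes by symbol (all but HSF1), with 14 windows. The element of 2 units, GAANNTTC or TTCNNGAA on either strand, was in a window of 7 of these 9 genes (77.8%), against 16.2% of all 27305 genes with a window. The element of 3 units, which adds NNGAA to the first or NNTTC to the second and so overlaps them, was in windows of HSP90AA1, HSP90AB1 and HSPA8, that is 33.3% of the 9, against 0.608% of all genes. BAG3 and HSPH1 had no match in these windows, which says only that these letters are not there. A pattern of 4 GGG runs with 1 to 7 bases between them, on either strand, was in a window of BAG3, HSP90AA1 and HSPB1 (33.3%), against 27.8% of all genes. A match describes the letters and is no evidence of binding or of a folded G4.

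The stretches that hold the heat shock elements are shown because HSF1 is known to act through such letters. They are given 5′ to 3′ on the strand of the gene, with the 2-unit matches in capitals. For HSPA8, 1 of its 2 stretches is shown. A further DNAJB1 match, in another of its windows, begins at base 2 of the transcript, so past its start, and is not shown. They lie at chr6:31815422-31815459 (plus strand, HSPA1A), chr6:31827618-31827655 (plus, HSPA1B), chr11:123062164-123062206 (minus, HSPA8), chr14:102087090-102087147 (minus, HSP90AA1), chr6:44247763-44247858 (plus, HSP90AB1), chr19:14518422-14518489 (minus, DNAJB1) and chr7:76302476-76302513 (plus, HSPB1).
HSPA1A: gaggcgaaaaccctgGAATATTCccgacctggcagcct
HSPA1B: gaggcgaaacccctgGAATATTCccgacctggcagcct
HSPA8: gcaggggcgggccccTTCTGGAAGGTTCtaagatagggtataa
HSP90AA1: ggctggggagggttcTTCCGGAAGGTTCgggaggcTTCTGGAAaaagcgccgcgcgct
HSP90AB1: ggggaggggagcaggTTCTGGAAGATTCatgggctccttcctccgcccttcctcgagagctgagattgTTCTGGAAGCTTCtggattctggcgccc
DNAJB1: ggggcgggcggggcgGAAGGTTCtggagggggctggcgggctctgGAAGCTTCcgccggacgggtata
HSPB1: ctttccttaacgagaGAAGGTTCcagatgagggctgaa
HSPA1A and HSPA1B carry the same 8-base match in nearly the same surroundings. HSP90AB1 has 2 separate 3-unit elements and HSP90AA1 has 1 followed by a 2-unit element.

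The heat shock genes showed no change past the threshold with any of the 3 compounds. By the authors' DESeq2 test with an adjusted p under 0.05, 0 of the 10 genes were called with SAHA, where 7.55% of all genes were (4.53% higher and 3.02% lower). With compound 1 there were 0 of 10, where 0% of all genes were called, and with a6 0 of 10, where 0.583% were (0.243% higher and 0.341% lower). At an unadjusted p under 0.05 in that test there was 1 of 10 with SAHA (HSPB1), 0 with compound 1 and 0 with a6. Over all genes there were 3418 of 18534 with SAHA, 54 of 27126 with compound 1 and 1131 of 15255 with a6. So nothing is read from the counts of the 10 genes. The median log2 fold change of the 10 was -0.23 with SAHA, -0.03 with compound 1 and 0.02 with a6, beside medians over all genes of -0.01, 0.01 and -0.03. With SAHA 8 of the 10 were below 0, with compound 1 there were 7 and with a6 5, while 49.3%, 51.4% and 45.9% of all genes were above 0. Of the 30 log2 fold changes, 24 had a 95% Wald interval lying wholly within a 2-fold change either way. The 6 that reached past 2-fold were HSPA1A, HSP90AA1, HSPH1 and HSPB1 with SAHA, HSPH1 with compound 1 and HSP90AA1 with a6.

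**Figure D1:**
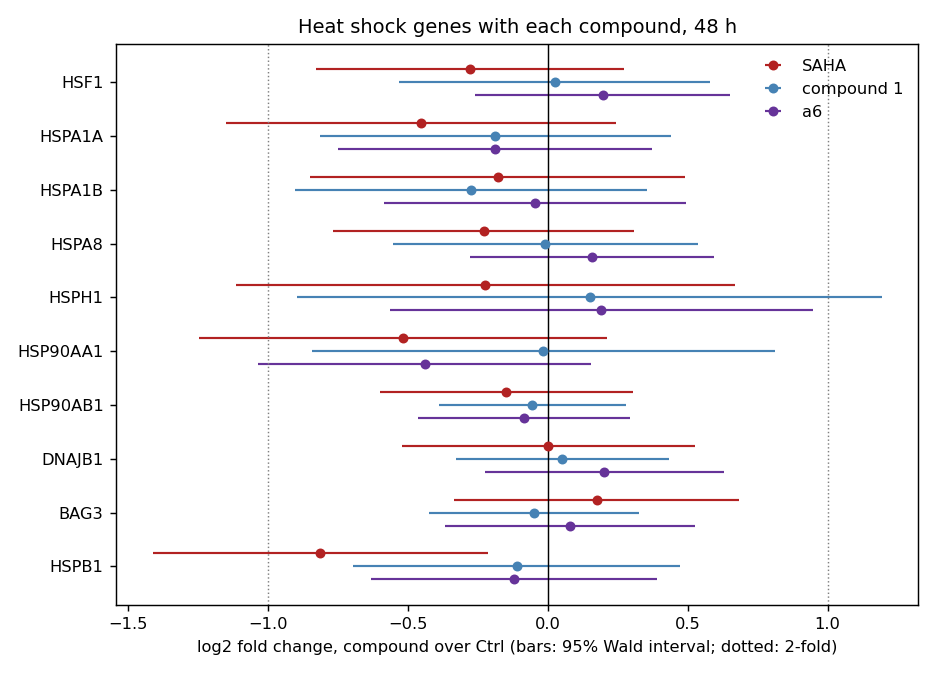
Log2 fold change over Ctrl (horizontal axis) of the 10 heat shock genes (rows) with SAHA, compound 1 and a6, from the authors' deposited tables; points are estimates, bars 95% Wald intervals, and dotted lines mark 2-fold. The interval of HSPB1 with SAHA, from -1.41 to -0.21, is the 1 of the 30 that leaves out 0, and HSPH1 has the widest intervals.

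The 10 genes covered a wide range of expression, and their order was nearly the same under every compound. Levels are mean normalized counts computed from the authors' deposited tables, here divided by the length of the merged exons in kilobases so that genes can be compared. HSP90AB1 was highest, at 7907 per kb with SAHA, 8425 with compound 1 and 8078 with a6, against 8574 to 8767 in Ctrl over the 3 tables. It ranked 22 by mean count in each table. HSPA8 followed at 4766, 5552 and 6103 per kb with SAHA, compound 1 and a6, against 5469 to 5588 in Ctrl, and HSPB1 at 2989, 4847 and 4716 against 5128 to 5251 in Ctrl. These 3 abundant chaperones stood well above the rest.

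HSP90AA1, the more inducible HSP90, was at 1214, 1723 and 1254 per kb with SAHA, compound 1 and a6, against 1702 to 1742 in Ctrl. HSF1 (1138 to 1165 per kb in Ctrl) and DNAJB1 (1090 to 1115) lay side by side, followed by BAG3 (746 to 764). HSPA1B (399 to 409 per kb in Ctrl), HSPA1A (298 to 305) and HSPH1 (106 to 108) were lowest. HSPA1A and HSPA1B are nearly identical in coding sequence, and how reads that fit both were counted is not given. If such reads were dropped, both levels are too low, so their places in this order are uncertain. The only changes of order by estimate were among HSP90AA1, HSF1 and DNAJB1: DNAJB1 was above HSF1 with SAHA (1116 and 961 per kb), and HSF1 was above HSP90AA1 with a6 (1304 and 1254 per kb). The tables give no error for a level, so whether neighbours in this order differ beyond the spread between libraries was not tested.

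**Figure D2:**
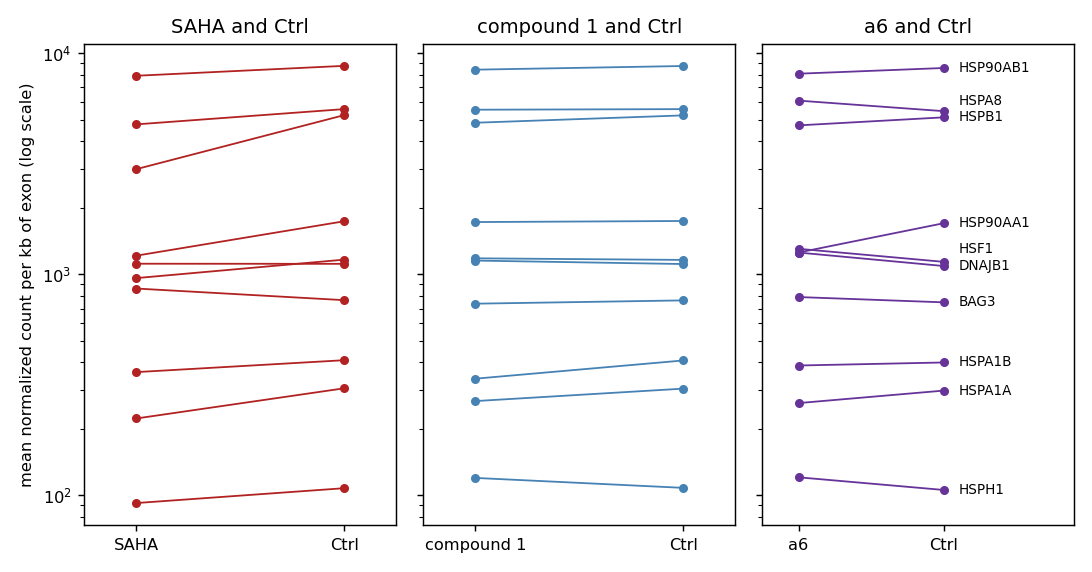
Mean normalized count per kb of merged exon (vertical log axis) of the 10 genes with each compound (left of each panel) and in Ctrl (right), computed from the authors' deposited tables; each line is 1 gene. HSP90AB1 stays on top and HSPH1 at the bottom in all 3 panels, and the steepest line is that of HSPB1 with SAHA, at 2989 with SAHA against 5251 in Ctrl. The heights of HSPA1A and HSPA1B depend on how reads that fit both were counted, which is not given.

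HSF1, the master regulator of the response, lies on chromosome 8, 144291591 to 144314722, plus strand (GENCODE 29, GRCh38). Its mean normalized count was 2146 with SAHA, against 2601 in Ctrl. With compound 1 it was 2637, against 2593 in Ctrl, and with a6 2912, against 2541 in Ctrl. The estimates lie on both sides of 0 and each is smaller than its standard error: the authors' deposited table gives -0.28 with a standard error of 0.28 for SAHA on the log2 scale, 0.02 with 0.28 for compound 1 and 0.20 with 0.23 for a6. The adjusted p was 0.693, 1.00 and 0.974 in these tests, and all 3 intervals lay within 2-fold. Once the GC trend of the fold changes was removed, the SAHA value turned to 0.0019. HSF1 overlaps DGAT1 and an antisense gene on the other strand, and no source used here says whether counting used strand, so reads of the overlap cannot be told apart.

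Among its relatives and modifiers, 1 gene of each list fell with SAHA, where 3.02% of all genes did; with lists this short, nothing is read from those counts. HSF2, a second heat shock factor that can form mixed trimers with HSF1, had a mean normalized count of 174 with SAHA, against 157 in Ctrl, 176 with compound 1, against 157, and 163 with a6, against 154, and did not pass in any table. In the list of other HSF family genes and HSF binding proteins, with 4 of 6 measured, 0 rose and 1 fell with SAHA, and 0 passed with compound 1 or a6. The gene that fell was HSBP1L1, named for its likeness to HSF binding protein, at 221 with SAHA, against 384 in Ctrl (log2 fold change -0.80 with a standard error of 0.27, adjusted p = 0.0436, authors' deposited table), and its adjusted p ranged between 0.0252 and 0.391 over the alternatives. Among 8 enzymes that modify HSF1 or its partners, 0 rose and 1 fell with SAHA: PLK1, a mitotic kinase that phosphorylates HSF1, at 1212 with SAHA, against 3048 in Ctrl (log2 fold change -1.33, adjusted p = 1.96e-05, authors' deposited table). HDAC6, the cytosolic deacetylase of HSP90, was at 809 with SAHA and 825 with a6, against 1147 and 1120 in Ctrl. Neither passed, at -0.50 (standard error 0.29) and -0.44 (0.27) on the log2 scale in the authors' deposited table.

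HSPA1A and HSPA1B are the stress-inducible HSP70 genes. They lie close together on chromosome 6, at 31815464 to 31817946 and 31827735 to 31830255, both on the plus strand. Their longest reading frames, 1926 bases each in GENCODE 29 transcripts, differ at 4 positions (99.8% identity). How reads were shared between them is therefore uncertain, and their sum is the safer value. If reads that fit both genes were dropped, the sum too is low. HSPA1A was at a mean normalized count of 553 with SAHA, against 757 in Ctrl, and HSPA1B at 910, against 1030. With compound 1 HSPA1A was at 663, against 755 in Ctrl, and HSPA1B at 850, against 1027. With a6 HSPA1A was at 649, against 739 in Ctrl, and HSPA1B at 975, against 1006. All 6 estimates were below Ctrl and none passed. In the authors' deposited table they ran on the log2 scale between -0.45 (standard error 0.36, HSPA1A with SAHA) and -0.05 (0.28, HSPA1B with a6). Summed over both genes, the count with the compound was 0.818 times that of Ctrl with SAHA, 0.849 times with compound 1 and 0.930 times with a6, values that carry no error here. Once the GC trend was removed, the SAHA values were -0.27 for HSPA1A and -0.014 for HSPA1B on the log2 scale, and that of HSPA1B with a6 was -0.0069; the sums were not recomputed.

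HSPA8, the constitutive HSP70 that also uncoats clathrin vesicles, lies on chromosome 11, 123057489 to 123063230, minus strand. Its mean normalized count was 12863 with SAHA, against 15082 in Ctrl, 14985 with compound 1, against 15078, and 16472 with a6, against 14760. In the authors' deposited table its log2 fold changes were -0.23 with a standard error of 0.27, -0.01 with 0.28 and 0.16 with 0.22, all with intervals inside 2-fold. GENCODE 29 names 17 pseudogenes after HSPA8, and the 5 of them in the compound 1 table had a summed mean count of 1.78. In the list of other HSP70 and HSP110 genes, all 9 were measured in each table. With SAHA 1 rose (4.53% of all genes did) and 0 fell (3.02%), too few to read. With compound 1 (0% of all genes) and a6 (0.583%) 0 passed. The one that rose was HSPA12B, a distant HSP70 relative known from endothelium, at 84.5 with SAHA, against 33.0 in Ctrl (log2 fold change 1.35 with a standard error of 0.43, adjusted p = 0.0270, authors' deposited table), and its adjusted p ranged between 0.00460 and 0.321 over the alternatives. HSPA12B was at 60.9 with a6, against 32.2 in Ctrl (log2 fold change 0.92 with a standard error of 0.42), and at 34.3 with compound 1, against 33.0 in Ctrl. It did not pass with either. The endothelial marker VWF rose beside it, at a mean normalized count of 23.0 with SAHA, against 1.41 in Ctrl (adjusted p = 0.00121, authors' deposited table). The adjusted p of VWF was 0.0804 with the statistic divided by its own spread, and the gene lies under a mean count of 50. PECAM1, another endothelial marker, was at 8.64 with SAHA, against 3.84 in Ctrl, and did not pass. The part of other cell types in the HSPA12B value was not tested.

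HSP90AA1 and HSP90AB1 encode the inducible and the constitutive cytosolic HSP90. HSP90AA1 lies on chromosome 14, 102080738 to 102139699, minus strand, and overlaps WDR20 on the other strand; HSP90AB1 lies on chromosome 6, 44246166 to 44253888, plus strand. HSP90AA1 had a mean normalized count of 4888 with SAHA, against 6998 in Ctrl, and 5051 with a6, against 6855 in Ctrl. With compound 1 it was 6937, against 7016 in Ctrl. So the estimate was lower with SAHA and a6 and close to Ctrl with compound 1, but none passed. In the authors' deposited table the log2 fold change of HSP90AA1 was -0.52 with a standard error of 0.37 for SAHA (adjusted p = 0.513), -0.44 with 0.30 for a6 (0.863) and -0.02 with 0.42 for compound 1 (1.00). HSP90AB1 had the tightest estimates of the 10, at -0.15 with 0.23 for SAHA, -0.06 with 0.17 for compound 1 and -0.09 with 0.19 for a6 in the authors' deposited table. Its intervals leave room for no more than -0.60 on the lower side and 0.30 on the upper.

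Precision did not simply follow abundance. Among the 5085 genes of the SAHA table whose mean count reached 500, 96.3% had a lower standard error than HSP90AA1 and 99.7% a lower one than HSPH1, while 0% had a lower one than HSP90AB1. In the compound 1 table these shares were 94.5%, 98.8% and 0.349%, and with a6 they were 92.5%, 99.4% and 0.159%. All 3 tables share the Ctrl libraries, so these are not independent readings. HSP90AA1 and HSPH1 had wide errors for their abundance in all 3 tables.

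Of the HSP90 co-chaperones, 15 of 15 were measured with SAHA. There 0 rose (4.53% of all genes did) and 1 fell (3.02%), too few to read. With compound 1 (15 measured) 0 passed, where 0% of all genes did, and with a6 (14 measured) 0, where 0.583% did. The median log2 fold change was 0.02 with SAHA, -0.05 with compound 1 and -0.01 with a6. The gene that fell was FKBP4, the immunophilin FKBP52 that helps HSP90 mature steroid receptors. Its mean normalized count was 1910 with SAHA, against 3162 in Ctrl (log2 fold change -0.73 with a standard error of 0.25, adjusted p = 0.0430, authors' deposited table). Its adjusted p was 0.0618 once the GC trend of the fold changes was removed, within a range of 0.0386 to 0.390 over the alternatives. FKBP4 was at 3301 with compound 1, against 3155 in Ctrl, and at 3383 with a6, against 3091 in Ctrl.

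HSPH1, DNAJB1 and BAG3 act on the HSP70 cycle. HSPH1, the HSP110 chaperone and an exchange factor for HSP70, lies on chromosome 13, 31134974 to 31162388, minus strand. It had a mean normalized count of 524 with SAHA, against 611 in Ctrl, 680 with compound 1, against 613, and 685 with a6, against 600. Its standard errors, 0.46, 0.53 and 0.39 on the log2 scale in the authors' deposited table, were the largest of the 10 genes in every table. The interval with compound 1 ran between -0.90 and 1.19, so a 2-fold rise lay within the error, and the estimate of 0.15 was 0.017 once the GC trend was removed.

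DNAJB1, the J-domain protein HSP40 that is among the most sharply heat-induced genes, lies on chromosome 19, 14514770 to 14529770, minus strand, and overlaps TECR on the other strand. It had 2732 with SAHA, against 2729 in Ctrl, 2824 with compound 1, against 2724, and 3070 with a6, against 2668 (mean normalized counts). In the authors' deposited table the log2 fold changes of DNAJB1 were 0.0018 with a standard error of 0.27, 0.05 with 0.19 and 0.20 with 0.22. BAG3, the exchange factor that links HSP70 to HSPB proteins and to selective autophagy, lies on chromosome 10, 119651370 to 119677819, plus strand. BAG3 had 2216 with SAHA, against 1963 in Ctrl, 1893 with compound 1, against 1959, and 2028 with a6, against 1919. In the authors' deposited table those of BAG3 were 0.17 with 0.26, -0.05 with 0.19 and 0.08 with 0.23. Once the GC trend was removed, BAG3 with SAHA was 0.31. For both genes all 3 intervals lay within 2-fold, and the highest upper bounds were 0.63 for DNAJB1 with a6 and 0.68 for BAG3 with SAHA.

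The J-domain and exchange factor lists gave no call, where 7.55%, 0% and 0.583% of all genes were called with SAHA, compound 1 and a6. Of the other J-domain genes, 16 of 16 were measured with SAHA and compound 1 and 15 with a6, and 0 rose and 0 fell in each, with medians of -0.05, 0.06 and 0.01. All 7 other BAG family and exchange factor genes were measured in each table, with 0 calls and medians of -0.39, 0.08 and 0.05. BAG1, the founding member, was at 385 with SAHA, against 638 in Ctrl (adjusted p = 0.114, authors' deposited table); it was chosen after its values were seen.

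HSPB1, the small heat shock protein HSP27 that holds unfolding proteins and stabilises actin, was the member with the largest deviation. It lies on chromosome 7, 76302544 to 76304295, plus strand. Its mean normalized count was 3169 with SAHA, against 5566 in Ctrl. With compound 1 it was 5138, against 5547 in Ctrl, and with a6 4999, against 5436 in Ctrl. The SAHA value was -0.81 on the log2 scale (standard error 0.31, authors' deposited table), at percentile 8.83 of all genes. The unadjusted p was 0.00784 and the adjusted p 0.0843, so it did not pass. Once the GC trend was removed it was -0.54 with an adjusted p of 0.366, within a range of 0.0773 to 0.520 over the alternatives. With compound 1 and a6 HSPB1 was at -0.11 with 0.30 and -0.12 with 0.26 (-0.044 and -0.073 without the GC trend). Few other small heat shock genes were measured: 2 of 7 with SAHA and compound 1 and 1 with a6, and 0 were called. HSPB8, the partner of BAG3, was at 208 with SAHA, against 159 in Ctrl, and at 211 with a6, against 156 in Ctrl, and did not pass.

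Few chaperones beyond the 10 were called. With compound 1 no gene at all was called, so the 0 there was fixed in advance. With a6 few of all genes were called, so the 0 there says little. Whether the share with SAHA differs from that of all genes was not tested. Over the 8 chaperone and co-chaperone lists together, 86 of 91 genes were measured with SAHA, of which 1 rose and 2 fell (3.49%, against 7.55% of all genes). Of 86 with compound 1 and 83 with a6, 0 were called in the authors' DESeq2 test, where 0% and 0.583% of all genes were. At an unadjusted p under 0.05 in that test there were 9 of 86 with SAHA, 0 of 86 with compound 1 and 5 of 83 with a6. Over all genes there were 3418 of 18534, 54 of 27126 and 1131 of 15255, so no excess is read from these counts. The TRiC chaperonin and prefoldin list, which folds actin and tubulin, had 0 of 14 called in every table and medians of 0.09, 0.06 and 0.08 with SAHA, compound 1 and a6. The mitochondrial list had 0 of 12 called and medians of -0.13, 0.02 and 0.09.

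In the endoplasmic reticulum list, 11 of 11 were measured in each table. With SAHA 0 rose (4.53% of all genes did) and 1 fell (3.02%), too few to read. With compound 1 (0% of all genes) and a6 (0.583%) 0 passed. The gene that fell was SERPINH1, the heat-inducible collagen chaperone HSP47. Its mean normalized count was 1892 with SAHA, against 5270 in Ctrl (log2 fold change -1.48 with a standard error of 0.26, adjusted p = 1.42e-06, authors' deposited table). It was 4525 with compound 1, against 5259 in Ctrl, and 3777 with a6, against 5151 in Ctrl, and did not pass in either. HSPA5, the HSP70 of the reticulum, was at 14530 with SAHA, against 10290 in Ctrl, 11458 with compound 1, against 10271, and 9840 with a6, against 10060, and did not pass in any table (adjusted p = 0.246, 1.00 and 0.997 in the authors' deposited table).

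Among 12 other genes of the heat shock response, 1 rose and 0 fell with SAHA, where 4.53% of all genes rose and 3.02% fell, so the count is near that of all genes, and 0 passed with compound 1 or a6. The gene that rose was CLU, the secreted chaperone clusterin, at a mean normalized count of 2298 with SAHA, against 1089 in Ctrl (log2 fold change 1.08 with a standard error of 0.28, adjusted p = 0.00443, authors' deposited table), and its adjusted p ranged between 0.00292 and 0.145 over the alternatives. CLU was at 971 with compound 1, against 1087 in Ctrl, and at 863 with a6, against 1064 in Ctrl. The 13 genes of the mitochondrial genome, read here for RNA quality, had medians of 0.06, -0.23 and -0.01 with SAHA, compound 1 and a6, with 10, 0 and 5 above 0 and 0 called; their part in the chaperone values was not tested.

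**Figure D3:**
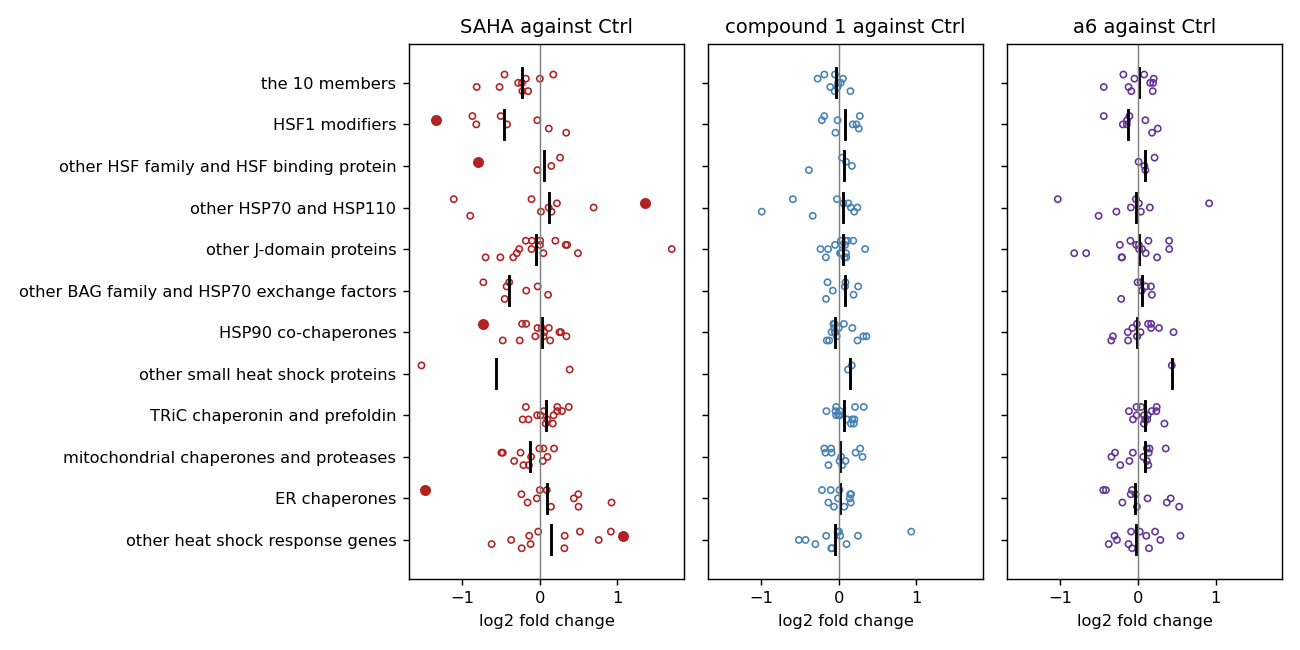
Log2 fold change over Ctrl (horizontal axis) of each measured gene of the 10 members and of 11 related lists (rows), in a panel per compound, from the authors' deposited tables; filled points passed an adjusted p of 0.05, open points did not, and black bars are list medians. The filled points are 6 genes with SAHA (PLK1, HSBP1L1, HSPA12B, FKBP4, SERPINH1 and CLU) and none with compound 1 or a6.

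The 3 compounds were used at the same dose and time, so their fold changes can be set against each other. Over 3 pairs of compounds and 10 genes, 30 differences of log2 fold changes were computed, with z tests adjusted over all genes of all 3 pairs. Between a6 and SAHA 0 of the 10 differed (0.328% of all genes did), between a6 and compound 1 0 (0.0459%), and between SAHA and compound 1 0 (0.799%). At an unadjusted p under 0.05 there were 0 in each pair, and the share of all genes at that limit is not given here. These tests and intervals ignore the Ctrl libraries that the comparisons share, which widens the error, so this 0 may rest in part on that choice. Unadjusted counts that allow for the shared libraries are not given. Under the alternatives, an error correlation of 0.5 among them, the lowest adjusted p of a member in these z tests was 0.210. The largest difference of a6 minus SAHA was that of HSPB1, 0.69 with a 95% interval between -0.09 and 1.48, and of SAHA minus compound 1 also HSPB1, -0.70 with an interval between -1.54 and 0.13. HSF1 itself was 0.47 higher with a6 than with SAHA, with an interval between -0.24 and 1.19, and 0.17 higher than with compound 1, with an interval between -0.55 and 0.89. The largest difference of a6 minus compound 1 was that of HSP90AA1, -0.42 with an interval between -1.44 and 0.59.

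The intervals set how alike the compounds can be said to be. They lay within 2-fold for 4 of 10 genes between a6 and SAHA, 7 between a6 and compound 1, and 4 between SAHA and compound 1. HSP90AB1, DNAJB1 and BAG3 had intervals within 2-fold in all 3 pairs, and the interval of HSP90AB1 for a6 minus compound 1, between -0.53 and 0.47, was the narrowest. For the other genes a 2-fold difference between some pair of compounds was within the error as computed. That error ignores the shared Ctrl libraries and so is wide. Intervals that allow for those libraries are not given, so more genes could lie within 2-fold. Among the related genes named here, SERPINH1 was lower with SAHA than with compound 1 by an adjusted p of 0.0373, and CLU lower with a6 than with SAHA by 0.0436 (z tests on DESeq2 fold changes). The CLU call was lost with p-values adjusted within the pair (0.0560) or each table centred on its median (0.0518). Neither call held at an adjusted p under 0.01.

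**Figure D4:**
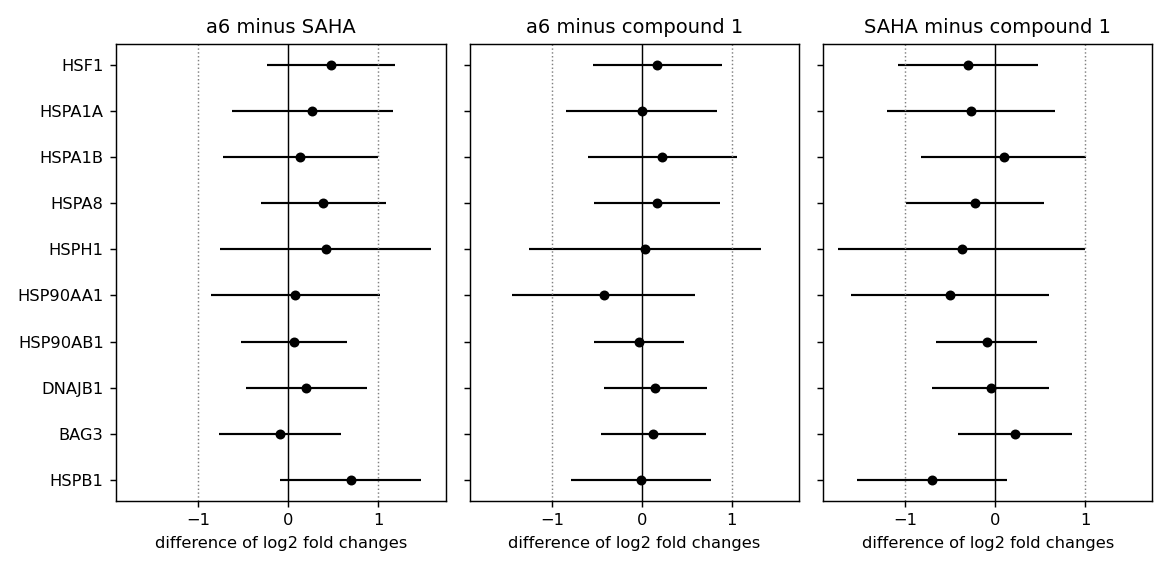
Difference of log2 fold changes (horizontal axis) between compounds for the 10 genes (rows), in a panel per pair. Points are differences, bars 95% intervals, and dotted lines mark 2-fold. The intervals ignore the shared Ctrl libraries, which widens them. All 30 bars cross 0, and HSPB1 lies farthest from 0 both for a6 minus SAHA, at 0.69, and for SAHA minus compound 1, at -0.70.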

How the data were processed

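RNA of 12 libraries was sequenced. Per the submitters' processing notes, the authors used cutadapt, DESeq2 and the build GRCh38 (hg38); the aligner, counter, strand setting and tool versions were not given in these sources. Per the file headers, the deposited tables hold a mean normalized count (a signal), log2 fold changes with standard errors, the Wald statistic (a score), p-values and adjusted p-values. The last equal a Benjamini-Hochberg adjustment over each table. Of the deposited lists of changed and G4-related genes only names were used. Depth per library is unknown.

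Levels were computed from mean count and fold change, for equal groups. Intervals are Wald intervals. For a difference between compounds the squared standard errors were added, with the shared Ctrl libraries ignored, which widens the error, and Benjamini-Hochberg adjustment over 3 pairs together. Their script was tested on simulated data. Lengths, GC content and positions come from GENCODE 29 (GRCh38), promoters from RefSeq. Python 3.11.15, pandas 2.3.3, SciPy 1.17.1 and statsmodels 0.14.6 were used.

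The members and lists were chosen with earlier results of these data known. Named genes are all 10 members, up to 2 per list, comparison and direction past the threshold with the smallest adjusted p, and HDAC6, HSPA5 and HSF2. Outside this rule, BAG1, HSPB8, CDC37 and HSPA2 are named too, as are markers of the line and of other cell types.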

Additional observations from a re-analysis of the deposited data

Results flagged for a closer look

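CLU and SERPINH1, a secreted and a collagen chaperone that are not among the 10 genes, differed between compounds at an adjusted p under 0.05 (z test). The log2 fold change of CLU was lower with a6 (-0.30) than with SAHA (1.08), a difference of -1.38 (standard error 0.37, adjusted p = 0.0436, z test on the authors' DESeq2 fold changes). That call was lost when p-values were adjusted within the pair (0.0560) or each table was centred on its median (0.0518), within a range of 3.64e-05 to 0.0560 over the alternatives. The log2 fold change of SERPINH1 was lower with SAHA (-1.48) than with compound 1 (-0.22), a difference of -1.26 (standard error 0.33, adjusted p = 0.0373, same test, range 2.69e-05 to 0.0437 over the alternatives). Both calls were lost where an adjusted p under 0.01 was asked for. Values of single libraries were not used here, so how many libraries show these differences was not tested.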

How the results depend on the processing

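Against Ctrl and between compounds, 0 of the 10 genes passed under any alternative run; their lowest adjusted p was 0.0773 against Ctrl and 0.210 between compounds. Of 390 member values under alternatives, 386 kept their direction and side of the threshold. Only centring and removal of the GC trend alter a fold change, so under the other alternatives no direction could turn. A 2-fold limit and an adjusted p under 0.01 only tighten a threshold that no member passed, so their 0 was fixed in advance. The 4 that turned sign were near 0: HSF1 with SAHA was 0.0019 with the trend on GC content removed, and for a6 minus compound 1 HSPA1A was 0.042, HSP90AB1 0.012 and HSPB1 0.032 with each table centred on its median. HSPA5 with a6 was 0.00052 after centring. The other chaperones called with SAHA were 3, and 1 at an adjusted p under 0.01 or with the statistic divided by its own spread. Over all genes SAHA called 1399, but 820 at an adjusted p under 0.01 and 350 with the statistic divided by its spread (compound 1: 0 and 143; a6: 89, and 36 at 0.01). With the GC trend removed 837 SAHA calls were higher and 359 lower, and where the mean count reached 50 there were 446 and 521, against 839 and 560 as deposited. With an error correlation of 0.5 the differences called were 504, 105 and 812 for a6 against SAHA, a6 against compound 1 and SAHA against compound 1, where 50, 7 and 148 were called with 0; at an adjusted p under 0.01 they were 17, 5 and 61. The causes were not tested. No paired analysis was possible because the tables used hold no values per library, and leaving out replicates was not run for the same reason. With 3 libraries a group and standard errors of 0.17 to 0.53, changes under 2-fold could go unseen. For genes with the wider errors, so could larger ones: the interval of HSPH1 with compound 1 reached 1.19 on the log2 scale.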

Other observations

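None of the 10 genes is in any of the authors' 12 lists of changed or G4-related genes. The lists of changed genes hold 609 lowered and 1327 raised names with SAHA, where 18534 genes were measured. They hold 248 and 150 with a6 (15255 measured), and 20 and 23 with compound 1 (27126 measured). The longest G4-related list holds 723 names. The rule behind these lists is not given here, and nothing is read from the absence of 10 genes. The HSP90 co-chaperone CDC37, which brings kinases to HSP90, is in the deposited list of G4-related genes lowered by a6, although the authors' deposited table gives it a log2 fold change of 0.46 with a6 (standard error 0.23), at a mean normalized count of 6568 with a6, against 4782 in Ctrl. That list holds 326 names, of which 118 are in the authors' list of genes lowered by a6. Of its 250 names found in the a6 table, 50 had a log2 fold change above 0.

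HSPA2, the testis-enriched HSP70, is in the authors' list of genes lowered by SAHA, at 28.1 with SAHA, against 60.6 in Ctrl, and was at 28.8 with a6, against 59.0 in Ctrl. It did not pass with either compound (adjusted p = 0.184 and 0.691 in the authors' deposited table). It was chosen after its values were seen.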
